A study of Mus musculus with 20 samples.

Results

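The nuclear genes of the mitochondrial respiratory chain were described in mouse embryonic stem cells with and without thymine DNA glycosylase (TDG), the enzyme that cuts oxidised cytosines out of DNA. The genes were chosen by symbol alone: Ndufa, Ndufb, Ndufc, Ndufs and Ndufv, Sdh, Uqcr, Cox4 to Cox8 and Atp5, without pseudogene (-ps) and Rik entries, of which 4 were set aside. This gave 96 genes of the 46939 in the table. Of these, 94 had a mean of at least 1 FPKM (a read level divided by transcript length and library size, so that genes can be compared) and were tested among 12035 such genes. The 96 include 11 assembly factors, and Atp5s and Atp5sl, which share the Atp5 name without being subunits of the enzyme.

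Both genotypes were embryonic stem cells of strain background 129, labelled WT and TDG KO. Both were kept with serum and LIF on growth-arrested mouse embryonic fibroblasts, which were removed by plating before harvest. Each genotype had 2 RNA-seq libraries of mRNA and 2 peak lists from chromatin immunoprecipitation of CTCF, a zinc finger protein that shapes chromatin loops. The sources used here do not give whether replicates were separate cultures, or whether a genotype was 1 cell line or several. A p-value therefore reflects how far these libraries scatter, possibly for technical reasons only, and a difference between genotypes cannot be told apart from a difference between the lines used.

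The targeted gene was low in the libraries labelled TDG KO: Tdg stood at 28.1 and 30.4 FPKM in WT and at 5.50 and 4.74 FPKM in TDG KO. All 7 stem cell markers were detected; their levels summed to 7334 and 8053 FPKM for WT against 5547 and 5754 FPKM for TDG KO. Of these markers 2 rose (Nanog and Utf1), 3 fell and 2 were not called, and Dppa5a and Pou5f1, which both fell, make up most of the sum. All 10 fibroblast markers were also detected, none at 0, summing to 283 and 180 FPKM for WT against 123 and 143 FPKM for TDG KO, and 8 of them fell. Their part in the changes given here was not tested. In such bulk RNA, fewer cells of a type and less RNA per cell cannot be told apart. Libraries had 20537 to 21776 genes above 0, and the absolute depth is unknown.

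The respiratory chain passes electrons from NADH through complex I, and from succinate through complex II, to ubiquinone, complex III, cytochrome c and complex IV, where oxygen is reduced. Complexes I, III and IV pump protons, and complex V, the ATP synthase, uses the gradient to make ATP. Most subunits are encoded in the nucleus and the rest in mitochondrial DNA, and several nuclear subunits of complexes IV and V exist as isoforms used in different tissues. Pluripotent cells rely heavily on glycolysis, while keeping a working respiratory chain.

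The respiratory chain genes did not move as a block in TDG KO: 13 rose, 24 fell and 57 were not called. The 13 include Cox7b2 and Cox8c, which passed the FPKM filter only through the TDG KO libraries. Calls are those of limma on log2(FPKM + 1) at a Benjamini-Hochberg adjusted p under 0.05 over all tested genes. Over all 12035 tested genes 24.4% were higher and 29.5% were lower. The 13 higher members (13.8%) were a smaller share than that background, and the 24 lower members (25.5%) a share near it. Members were abundant, with a median level of 153 FPKM against 11.8 FPKM over all tested genes. Of the 1035 tested genes with a mean of at least 100 FPKM, 21.5% were higher and 36.0% lower. Both member shares were below these. The median log2 change was -0.07 over the members and -0.04 over all tested genes. On the log2(FPKM + 1) scale 7 of the 94 (7.45%) differed by at least 1.5-fold, against 17.4% of all tested genes and 10.5% of the 1035 genes with a mean of at least 100 FPKM. On plain FPKM means the count was 8, with Cox8c added. Both TDG KO libraries lay above both WT libraries in 27 members, against 35.1% of all tested genes, and below both in 41 members, against 43.6%; the groups overlapped in the other 26. Scaling the libraries to a common median gave 17 higher and 20 lower members (18.1% and 21.3%, against 27.3% and 25.5% of all tested genes). In the authors' deposited table, where 15.3% of genes were significant and higher and 12.1% significant and lower, 8 members were significant and higher and 7 significant and lower. All 15 of them had the same direction and were also called by limma.

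These counts rest on few libraries. Without WT replicate 1 there were 8 higher and 14 lower members (8.51% and 14.9%, against 19.4% and 21.2% of all tested genes), and without WT replicate 2 there were 10 and 11 (10.6% and 11.7%, against 19.6% and 20.4%). Without TDG KO replicate 1 there were 22 higher and 14 lower (23.4% and 14.9%, against 21.0% and 23.1%). Without TDG KO replicate 2 there were 9 and 31 (9.57% and 33.0%, against 18.8% and 21.4%). How the members' shares compare with the background therefore turned with the TDG KO library left out. TDG KO replicate 2 exceeded TDG KO replicate 1 in 89 of the 94 members, with a median ratio of 1.11. The same held for 6475 of all 12035 tested genes (median ratio 1.01) and for 905 of the 1035 genes with a mean of at least 100 FPKM (median ratio 1.07). WT replicate 2 exceeded WT replicate 1 in 58 members, with a median ratio of 1.01. The calls of 7 of the 13 higher members (Ndufb10, Ndufs7, Uqcr10, Uqcrq, Cox7b2, Atp5d and Atp5g1) and 10 of the 24 lower members (Ndufa10, Ndufa3, Ndufb11, Sdha, Uqcrb, Cox6b1, Cox6b2, Cox7b, Atp5j and Atp5k) held under every setting tried for that gene. Cox7b2 has a mean under 5 FPKM, so the stricter filter gave no value for it, and it passed the main filter only through its TDG KO libraries.

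**Figure D1:**
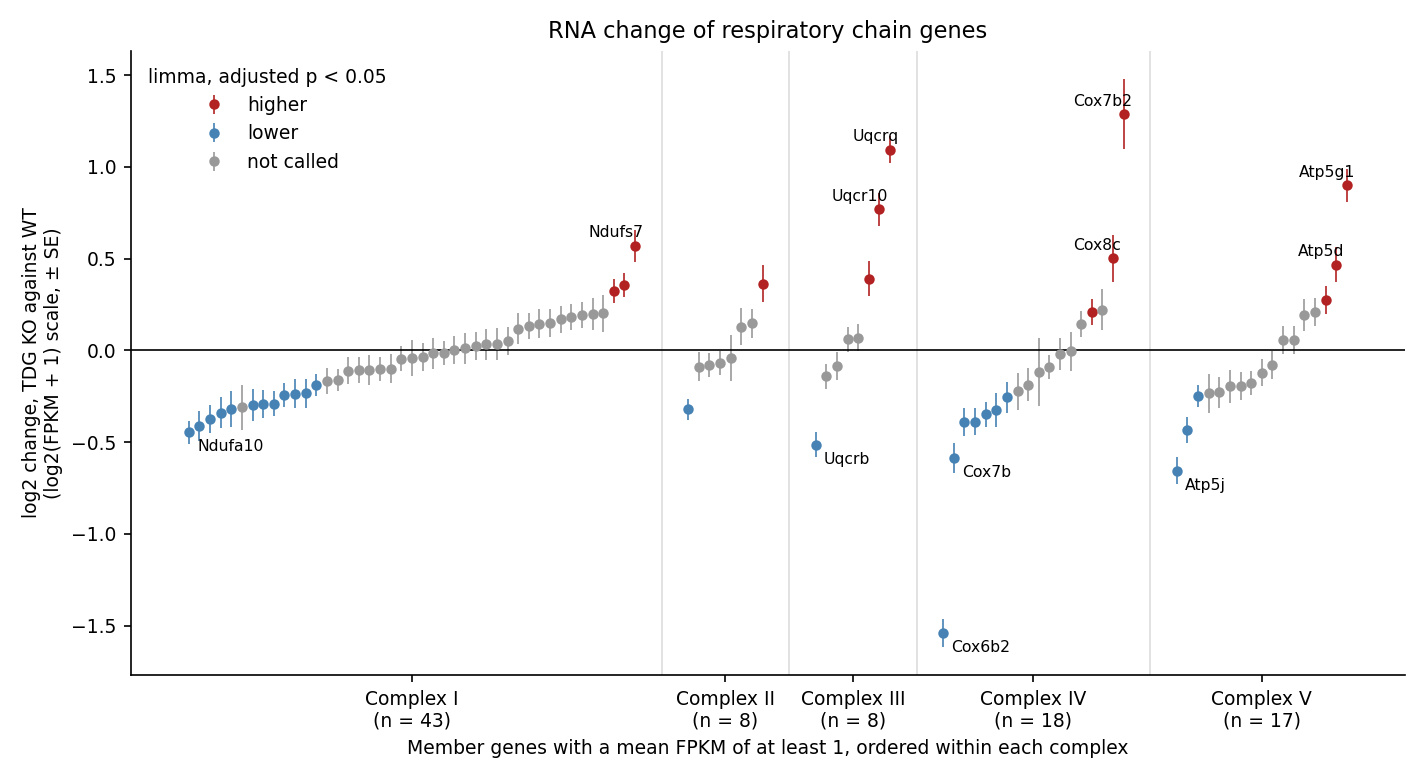
Log2 change in TDG KO against WT, with its standard error from limma (2 libraries per genotype), for the 94 tested members, ordered by change within each complex. Red and blue points passed an adjusted p under 0.05; most points lie within 0.5 of 0, and Uqcrq (1.09) and Cox6b2 (-1.54) are the highest and lowest of the well-expressed genes.

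The largest increases of well-expressed members were those of Uqcrq (1.09 on the log2 scale), Atp5g1 (0.90), Uqcr10 (0.77) and Ndufs7 (0.57), and the largest decreases those of Cox6b2 (-1.54), Atp5j (-0.66), Cox7b (-0.59) and Uqcrb (-0.51). Promoter sequences, from RefSeq on build GRCm38 (mm10), are shown for members of this group that had an entry and for Cox6b1, the sister gene of Cox6b2. Each runs 5′ to 3′ on the strand of the gene, from 250 bases before the start of transcription to 50 after it. Capitals mark matches, on either strand, to the letters CGCATGCG of nuclear respiratory factor 1 (NRF1), CCGGAAG of GABP, AANATGGC of YY1 and AGGNGGCG of CTCF. The first 3 factors are textbook regulators of nuclear respiratory genes; the CTCF letters were added after the data had been seen.
Uqcr10 promoter, chr11:4704295-4704594, minus strand: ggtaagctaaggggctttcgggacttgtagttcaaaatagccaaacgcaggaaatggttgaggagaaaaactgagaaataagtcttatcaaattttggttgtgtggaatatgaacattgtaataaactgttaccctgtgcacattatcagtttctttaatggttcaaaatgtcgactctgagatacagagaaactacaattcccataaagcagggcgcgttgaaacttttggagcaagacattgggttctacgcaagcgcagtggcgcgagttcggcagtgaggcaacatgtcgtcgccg
Atp5g1 promoter, chr11:96075582-96075881, minus strand: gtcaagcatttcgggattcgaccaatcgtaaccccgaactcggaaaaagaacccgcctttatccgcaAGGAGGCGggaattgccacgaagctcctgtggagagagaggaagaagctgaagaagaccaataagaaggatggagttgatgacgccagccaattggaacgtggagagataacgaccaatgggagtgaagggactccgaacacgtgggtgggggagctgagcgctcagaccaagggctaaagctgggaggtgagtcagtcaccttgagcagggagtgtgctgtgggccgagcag
Ndufs7 promoter, chr10:80249199-80249498, plus strand: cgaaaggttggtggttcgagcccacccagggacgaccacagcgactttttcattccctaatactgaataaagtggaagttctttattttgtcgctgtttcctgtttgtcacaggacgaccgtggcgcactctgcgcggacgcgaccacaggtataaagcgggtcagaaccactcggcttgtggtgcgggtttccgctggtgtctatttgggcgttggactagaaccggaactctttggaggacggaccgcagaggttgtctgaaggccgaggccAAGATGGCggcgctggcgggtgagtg
Cox6b2 promoter, chr7:4753045-4753344, minus strand: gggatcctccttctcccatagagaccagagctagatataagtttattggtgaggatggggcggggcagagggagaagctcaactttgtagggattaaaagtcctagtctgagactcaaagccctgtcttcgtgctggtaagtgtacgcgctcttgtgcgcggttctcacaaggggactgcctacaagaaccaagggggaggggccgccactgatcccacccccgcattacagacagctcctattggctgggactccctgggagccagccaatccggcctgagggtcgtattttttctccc
Cox7b promoter, chrX:106015450-106015749, plus strand: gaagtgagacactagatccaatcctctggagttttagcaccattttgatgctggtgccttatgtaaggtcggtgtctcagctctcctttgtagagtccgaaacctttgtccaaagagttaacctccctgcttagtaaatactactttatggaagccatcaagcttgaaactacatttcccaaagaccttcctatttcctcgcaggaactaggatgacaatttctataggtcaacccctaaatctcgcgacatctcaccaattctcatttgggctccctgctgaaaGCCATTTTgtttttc
Cox6b1 promoter, chr7:30626065-30626364, minus strand: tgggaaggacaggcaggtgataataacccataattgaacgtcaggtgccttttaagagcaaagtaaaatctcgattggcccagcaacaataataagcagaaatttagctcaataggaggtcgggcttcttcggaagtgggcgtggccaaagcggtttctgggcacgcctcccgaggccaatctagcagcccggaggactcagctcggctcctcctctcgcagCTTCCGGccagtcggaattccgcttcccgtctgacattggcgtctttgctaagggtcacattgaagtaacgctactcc
Atp5j promoter, chr16:84834927-84835226, minus strand: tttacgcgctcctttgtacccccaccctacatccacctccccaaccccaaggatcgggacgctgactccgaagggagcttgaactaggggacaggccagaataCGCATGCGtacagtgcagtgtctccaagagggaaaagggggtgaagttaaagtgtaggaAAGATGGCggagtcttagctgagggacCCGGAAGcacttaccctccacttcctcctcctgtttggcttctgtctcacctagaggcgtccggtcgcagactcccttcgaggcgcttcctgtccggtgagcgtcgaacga

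No match to any of the 4 motifs lies in the shown windows of Uqcr10 and Cox6b2. That of Cox6b1 holds 1 GABP match, those of Ndufs7 and Cox7b 1 YY1 match each, and that of Atp5g1 1 CTCF match. The window of Atp5j shown holds 1 match each to NRF1, GABP and YY1; its other annotated start has none. Of the 96 members, 80 had an entry, with 86 promoters. Of these 86, 51.2% held at least 1 match to NRF1, GABP or YY1, against 15.5% of all 32851 promoters of the table and 27.3% of the 11624 promoters of genes with a mean of at least 1 FPKM. NRF1 letters were in 12.8% of the members' promoters and 4.05% of those 11624, GABP letters in 23.3% and 17.9%, and YY1 letters in 24.4% and 8.58%. CTCF letters were in 19.8% and 23.3%, which does not measure how many of these promoters hold a CTCF site. The shares with an NRF1, GABP or YY1 match were 58.3% of the 12 promoters of higher members, 60.0% of the 20 of lower members and 47.2% of the 53 of members not called. A match describes the letters and shows no binding, and a missing match does not show that a site is absent.

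Complex I, the NADH dehydrogenase, had 43 members, of which 3 rose (6.98%), 12 fell (27.9%) and 28 passed no threshold. The median log2 change was -0.04. The shares over all tested genes, 24.4% higher and 29.5% lower, are the background for this and every other complex. Among the core subunits, which include the carriers of the flavin and the iron-sulphur clusters, Ndufs1, Ndufs3 and Ndufv2 fell, Ndufs7 rose, and Ndufs8 and Ndufv1 were not called. These 3 decreases were small, between -0.29 and -0.19 on the log2 scale, and none held under every setting. Ndufs7, whose product carries the last iron-sulphur cluster before ubiquinone, stood at 66.1 and 62.8 FPKM in WT and at 88.6 and 104 FPKM in TDG KO. Its groups did not overlap, and its log2 change was 0.57 (SE 0.087, limma, adjusted p = 0.00197).

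The 29 accessory subunits surround the core without taking part in electron transfer. Of these, 2 rose (6.90%), 7 fell (24.1%) and 20 were not called. Ndufa10 stood at 120 and 117 FPKM in WT and at 84.1 and 89.5 FPKM in TDG KO, a log2 change of -0.45 (SE 0.062, limma, adjusted p = 0.00134). Ndufa3 went from 164 and 168 to 116 and 134 FPKM (log2 change -0.41), and the X-linked Ndufb11 from 115 and 125 to 87.7 and 97.3 FPKM (-0.37). In all 3 the TDG KO libraries lay below both WT libraries. Ndufb10 rose from 122 and 124 to 152 and 164 FPKM (log2 change 0.36), and Ndufa9, which sits where the arms of the complex meet, rose from 116 and 125 to 147 and 156 FPKM (0.32). Ndufa9 lies on chromosome 6 among genes of which 62.0% rose (71 tested neighbours within 5 Mb, median log2 change 0.34), and without WT replicate 1 its adjusted p was 0.0593. The most abundant members of complex I, Ndufa7 (505 and 472 FPKM in WT, 468 and 533 FPKM in TDG KO) and Ndufb8 (263 and 257, then 229 and 253 FPKM), were not called. Of the 7 Ndufaf assembly factors, which help build the complex and are not part of it, Ndufaf3 fell and the other 6 were not called.

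Complex II, the succinate dehydrogenase that also serves the citric acid cycle, has all its subunits encoded in the nucleus. Of the 4 subunits only Sdha, the flavoprotein that oxidises succinate, was called. It stood at 124 and 127 FPKM in WT and at 100.4 and 101 FPKM in TDG KO, with a log2 change of -0.32 (SE 0.057, limma, adjusted p = 0.00375). Sdhb, the iron-sulphur subunit, stood at 127 and 135 FPKM in WT and 121 and 129 FPKM in TDG KO, and the membrane anchor Sdhd at 155 and 157 and at 143 and 152 FPKM. The sets of 4 values overlap for Sdhb and not for Sdhd, and neither gene was called. Of the 4 Sdhaf assembly factors only Sdhaf3 was called, at 1.62 and 1.90 FPKM in WT and 2.63 and 2.47 FPKM in TDG KO (log2 change 0.36), and its call was lost without WT replicate 1 (adjusted p 0.0872).

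Complex III, the cytochrome bc1 complex, held large changes in opposite directions among its 8 members. Of these, 3 rose (37.5%), 1 fell (12.5%) and 4 were not called. Uqcrq, a small subunit next to cytochrome b, stood at 272 and 277 FPKM in WT and at 558 and 616 FPKM in TDG KO. Both TDG KO libraries were far above both WT libraries, and the log2 change was 1.09 (SE 0.074, limma, adjusted p = 8.84e-05). Uqcr10, another small subunit, stood at 429 and 392 FPKM in WT and at 656 and 746 FPKM in TDG KO (log2 change 0.77, SE 0.090, adjusted p = 0.000684, limma). Uqcr11 went from 311 and 287 to 361 and 425 FPKM (log2 change 0.39), and its adjusted p was 0.0976 without WT replicate 2. Uqcrb, which binds near the ubiquinone site, fell from 388 and 399 to 267 and 284 FPKM (log2 change -0.51, SE 0.067, adjusted p = 0.00107, limma). The catalytic Rieske protein gene Uqcrfs1 (113 and 122 FPKM in WT, 119 and 126 FPKM in TDG KO) and the core protein genes Uqcrc1 (244 and 239, then 241 and 267 FPKM) and Uqcrc2 (156 and 169, then 144 and 151 FPKM) were not called. The summed FPKM of the 8 genes was 2290.5 and 2281 in WT against 2693 and 2997 in TDG KO. Both TDG KO sums were above WT, but Uqcrq and Uqcr10, both on chromosome 11, weigh heavily in them. Gene by gene, both TDG KO libraries lay above both WT libraries in 3 of the 8 and below both in 2. The groups overlapped in the other 3.

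Complex IV, cytochrome c oxidase, had 20 members counting Ndufa4 and Ndufa4l2, since the Ndufa4 product is now held to belong to it. Of the 18 tested, 3 rose (16.7%), 7 fell (38.9%) and 8 were not called, and the median log2 change was -0.15. Cox7b2 and Cox8c, 2 of the 3 that rose, passed the filter only through the TDG KO libraries. Cox6b2, the testis isoform of a subunit that faces the intermembrane space, stood at 159 and 160 FPKM in WT and at 50.8 and 57.9 FPKM in TDG KO. Replicates lay close together, the groups were far apart, and the log2 change was -1.54 (SE 0.075, limma, adjusted p = 2.36e-05). Its widely expressed sister Cox6b1 went from 531 and 526 to 386 and 422 FPKM (log2 change -0.39, SE 0.073, adjusted p = 0.00466, limma). Cox6b2 therefore made up 23.1% and 23.3% of the 2 genes' summed FPKM in WT and 11.6% and 12.1% in TDG KO.

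Cox7b, a small X-linked subunit needed for assembly of the enzyme, fell from 313 and 277 to 189 and 203 FPKM (log2 change -0.59, SE 0.081, adjusted p = 0.00134, limma). Cox6c fell from 642 and 676 to 484 and 522 FPKM (log2 change -0.39), Cox4i1 from 724 and 703 to 527 and 615 FPKM (-0.33), and Cox5a from 489 and 510 to 381 and 404 FPKM (-0.35). None of these 3 calls held under every setting: the adjusted p was 0.0713 for Cox6c, 0.11 for Cox4i1 and 0.0744 for Cox5a without WT replicate 2. Cox7a2 fell from 223 and 209 to 168 and 194 FPKM (log2 change -0.26). The Cox7a2 call was also lost under several settings, such as scaling to a common median (adjusted p = 0.0716, limma). Cox8a rose from 477 and 457 to 524 and 555 FPKM (0.21, adjusted p = 0.0431, limma); the adjusted p was 0.293 without WT replicate 2. The summed FPKM of the 20 genes was 5626 and 5643 in WT against 4564 and 5100 in TDG KO, below WT in both libraries. Summed levels of complex II were also below WT in both libraries (577 and 604 FPKM, then 523 and 567 FPKM). Those of complex I (5303 and 5317, then 4813 and 5424 FPKM), complex V (7756 and 7887, then 7423 and 8167 FPKM) and all 96 members (21552 and 21733, then 20016 and 22256 FPKM) overlapped between genotypes.

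Among the related genes of complex IV the one in general use was more abundant than the tissue-restricted one in every family with such a pair, with the smallest gap between Cox6b1 and Cox6b2 in WT. Cox4i2, used where oxygen is low, stood between 1.57 and 1.84 FPKM in the 4 libraries, far below Cox4i1. Cox6a1 stood at 332 and 326 FPKM in WT and at 347 and 381 FPKM in TDG KO, and the heart and muscle isoform Cox6a2 at 0.142 and 0.166 and at 0.144 and 0.245 FPKM, too low to be tested. The muscle isoform Cox7a1 stood at 24.9 and 23.8 FPKM in WT and at 25.2 and 32.4 FPKM in TDG KO and was not called. Cox7a2l, whose product takes part in supercomplexes of complexes III and IV, stood at 170 and 179 and at 159 and 169 FPKM and was not called. Ndufa4 stood at 480 and 521 FPKM in WT and at 411 and 470 FPKM in TDG KO, and Ndufa4l2 at 3.42 and 5.56 and at 3.61 and 4.36 FPKM; neither was called. The testis isoform Cox7b2 went up from 0.589 and 0.595 to 2.15 and 3.78 FPKM (log2 change 1.29, SE 0.19, adjusted p = 0.00177, limma). Cox8c, also a testis isoform, rose from 0.720 and 0.952 to 1.81 and 1.40 FPKM (log2 change 0.50); the adjusted p was 0.0514 without WT replicate 1. Cox7b2 and Cox8c passed the filter only through the TDG KO libraries, so they could hardly have been tested without being higher there. Cox8b was listed at 0 in both TDG KO libraries and stood at 0.0779 and 0.182 FPKM in WT; the authors' table gives it no test.

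**Figure D2:**
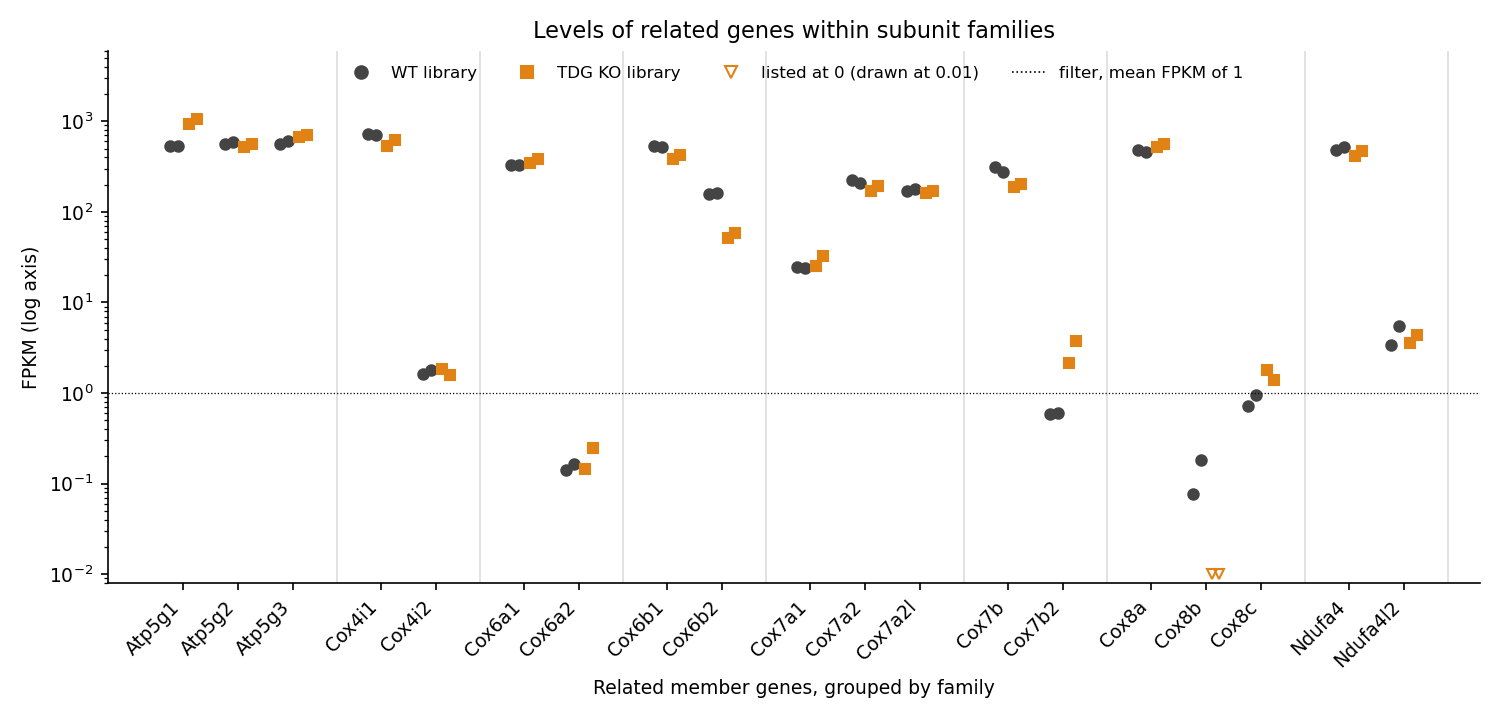
FPKM on a log axis in each of the 4 libraries for families of related member genes; circles are WT and squares TDG KO libraries, and open triangles stand for a listed value of 0. Cox6b2 stands near 160 in WT and between 50.8 and 57.9 in TDG KO, Atp5g1 stands above its 2 sister genes in TDG KO alone, and most tissue-restricted genes lie far below their relatives.

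Complex V, the ATP synthase, had 17 members: 3 rose (17.6%), 3 fell (17.6%) and 11 were not called. The 3 genes Atp5g1, Atp5g2 and Atp5g3 encode the same mature c subunit, which forms the rotor ring, with different import signals. Atp5g1 stood at 530 and 531 FPKM in WT and at 922 and 1063 FPKM in TDG KO, with a log2 change of 0.90 (SE 0.088, limma, adjusted p = 0.000345). Atp5g2 stood at 559 and 585 FPKM in WT and at 516 and 567 FPKM in TDG KO, and Atp5g3 at 567 and 610 and at 663 and 698 FPKM; neither was called. The share of Atp5g1 in the summed FPKM of the 3 genes was 32.0% and 30.8% in WT against 43.9% and 45.7% in TDG KO. The 3 messages are similar in their coding part, so reads may have been split between them.

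Atp5j, which encodes coupling factor 6 of the stalk, fell from 399 and 400 to 241 and 266 FPKM (log2 change -0.66, SE 0.073, adjusted p = 0.000567, limma). Atp5k, which encodes the e subunit at the dimer interface, fell from 558 and 549 to 394 and 426 FPKM (log2 change -0.43, SE 0.071, adjusted p = 0.00266, limma). In both genes the TDG KO libraries lay well below the WT libraries. Atp5d, the delta subunit of the central stalk, rose from 180 and 171 to 222 and 267 FPKM (log2 change 0.47, adjusted p = 0.00634, limma). Atp5h, a subunit of the outer stalk, rose from 412 and 440 to 495 and 537 FPKM (0.27, adjusted p = 0.0208, limma). Atp5b, the catalytic beta subunit and the most abundant member, stood at 1586 and 1674 FPKM in WT and at 1349 and 1434 FPKM in TDG KO; the groups did not overlap, and the adjusted p was 0.0542. The alpha subunit gene Atp5a1 (663 and 664 FPKM in WT, 586 and 634 FPKM in TDG KO) was not called. Atp5sl fell from 25.7 and 25.4 to 21.0 and 21.7 FPKM (log2 change -0.25), and its call did not hold under every setting.

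**Figure D3:**
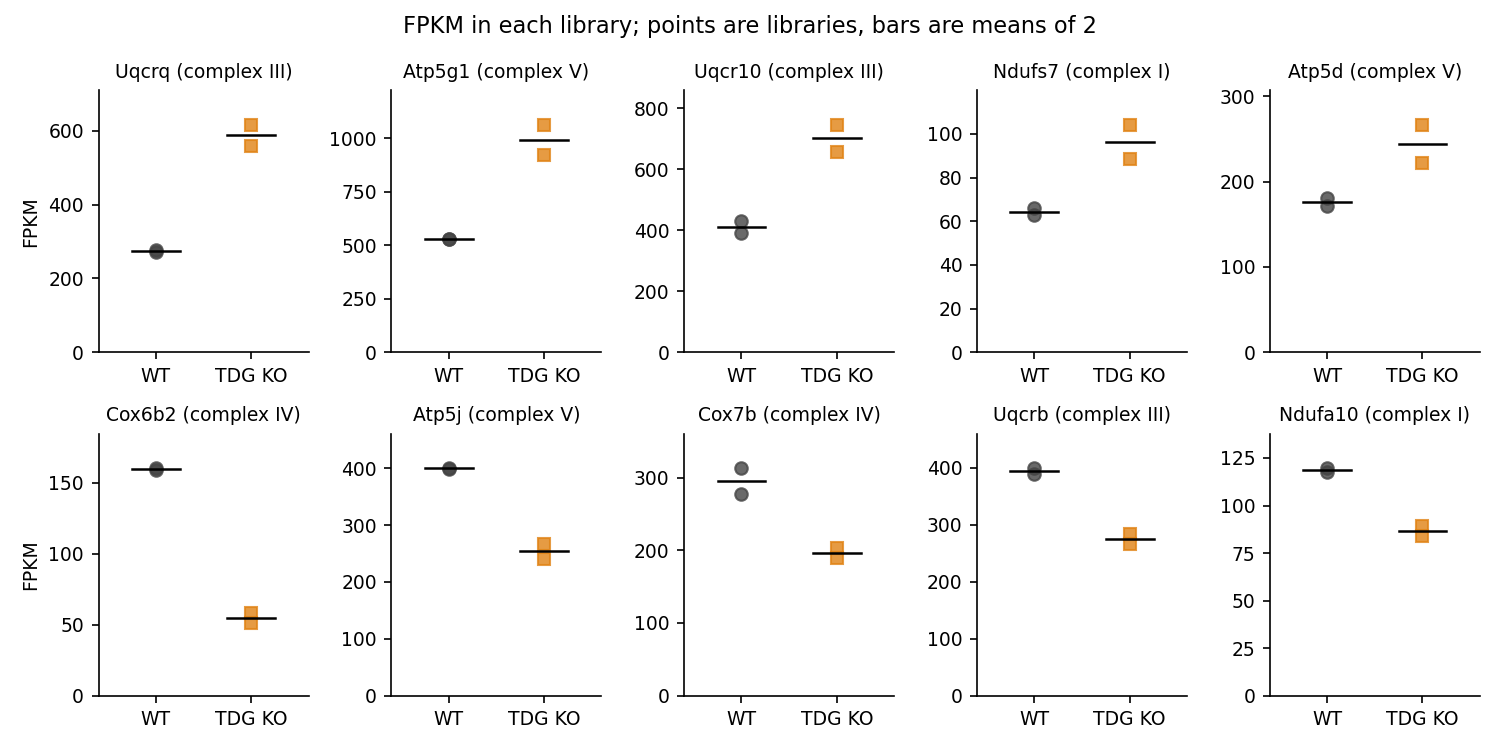
FPKM of 10 called members in each library, 2 WT (circles) and 2 TDG KO (squares), with bars at the group means; each panel starts at 0. In the upper row both TDG KO libraries lie above both WT libraries (Uqcrq 272 and 277 against 558 and 616), and in the lower row below both (Cox6b2 159 and 160 against 50.8 and 57.9).

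Position on chromosome 11 moved with the increases. All 4 members there rose: Uqcrq (chr11:53427922-53430831), Atp5g1 (chr11:96072793-96075694), Uqcr10 (chr11:4701968-4704344) and Atp5h (chr11:115415691-115419919), with a median log2 change of 0.83. The other 1024 tested genes of chromosome 11 had a median log2 change of 0.37, and 65.4% of them rose while 5.27% fell. Among the 90 tested members elsewhere 9 rose (10.0%) and 24 fell (26.7%), against 20.7% and 31.8% of the other 10912 tested genes placed off chromosome 11. Chromosome 11 held 6.32% and 7.21% of the CTCF peaks in the WT lists and 9.36% and 7.74% in the TDG KO lists. When each gene was set against the median of its own chromosome, a setting chosen after seeing the data, Uqcrq, Atp5g1 and Uqcr10 were still called higher, while Atp5h came to -0.10 (adjusted p = 0.241, limma). That setting gave 19 higher and 15 lower members (20.2% and 16%, against 25.4% and 23.9% of all tested genes).

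Among the 9 increases elsewhere, those of Atp5d, Ndufs7 and Uqcr11 come from neighbouring stretches of chromosome 10, beginning at bases 80138698, 80249105 and 80402997; this grouping was noticed after their values were seen. The tested genes within 5 Mb of Atp5d (162 genes) had a median log2 change of 0.03, and 31.5% of them rose and 22.8% fell. Around Atp5j on chromosome 16, 41.7% of 12 tested neighbours fell and none rose. Around Cox6b2 on chromosome 7, 17.9% of 56 tested neighbours fell and 26.8% rose.

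**Figure D4:**
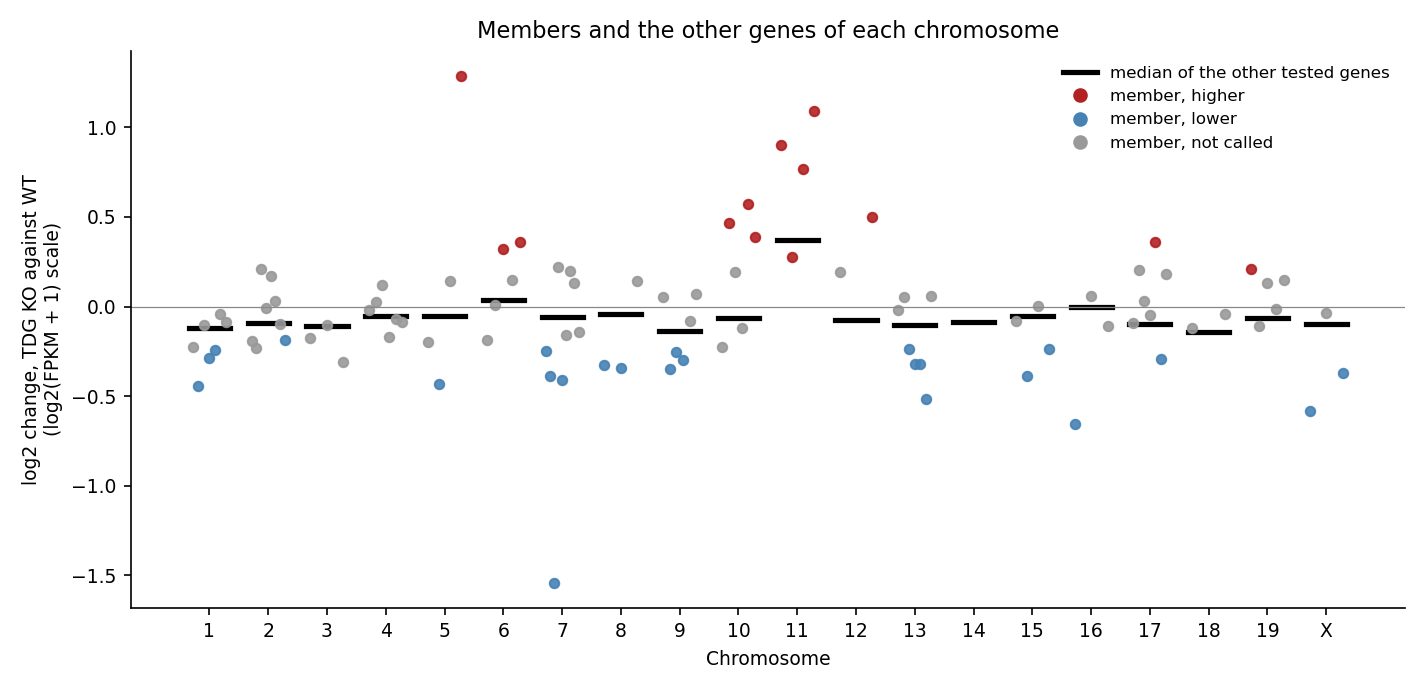
Log2 change in TDG KO against WT of the tested members by chromosome; points are genes, coloured by call, and black bars are the median of the other tested genes of that chromosome. On chromosome 11 the bar lies at 0.37 and all 4 members are red; chromosome 14 has no member.

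CTCF was compared at the same genes as peaks of the 4 lists merged where they share at least 1 bp. A region lay within 1 kb of either gene end in 33 of the 96 members (34.4%), against 29.0% of the tested genes. In 26 members a region was in all 4 lists, against 20.7% of the tested genes. Per list, 27 and 28 members had a peak in WT and 32 and 31 in TDG KO. Of the tested genes, 23.8% and 22.1% had a peak in the WT lists and 26.4% and 26.8% in the TDG KO lists. The lists held 38303 and 37099 peaks in WT against 48514 and 48833 in TDG KO. Of the 33 members with a region 5 rose, 7 fell and 21 were not called. Of the 63 without, 8 rose, 17 fell and 36 were not called, with 2 not tested. Over all tested genes 24.4% rose and 29.5% fell.

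A region in both TDG KO lists and in neither WT list lay at 1 member, Uqcrc2 (chr7:120634996-120635290), against 2.24% of the tested genes, and a region in both WT lists alone at no member. The Uqcrc2 peak, which overlaps one end of the gene, ranked at the 9.81 and 38.0 percentiles of its lists by the authors' score, which is used here only to rank peaks within a list. Uqcrc2 RNA was not called (log2 change -0.14). At 5 kb in place of 1 kb there were 8 such members, against 8.13% of the tested genes. With only the peaks above the median score of each list there were 0, against 1.4%.

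Other regions that were missing from some lists lay at 8 members. The one near Atp5g1 (chr11:96072474-96072731) was in WT replicate 2 and both TDG KO lists, at the 20.5, 51.2 and 27.6 percentiles. This Atp5g1 region lay 2900 bp from the annotated start of transcription, by the other end of the gene and outside the promoter shown above. The one near Ndufs7 (chr10:80247966-80248126) was in TDG KO replicate 2 alone, at percentile 8.00. Those at Ndufaf4, Uqcrh and Atp5j2 were in 3 lists each, as was that at Ndufaf6, and those at Ndufa11 and Atp5o were in TDG KO replicate 1 alone. Uqcrh and Atp5o each had a pair of such regions. Within 1 kb of a gene end, Ndufaf4 and Uqcrh also had a region in all 4 lists. Of these 8 members only Atp5g1 and Ndufs7 were called. Uncalled Atp5j2 stood at 312 and 305 FPKM in WT and 246 and 293 FPKM in TDG KO, Atp5o at 398 and 400 and at 394 and 437 FPKM, and Uqcrh at 377 and 396 and at 347 and 382 FPKM. The lower-expressed Ndufa11 stood at 35.6 and 33.7 FPKM in WT and 36.0 and 44.4 FPKM in TDG KO, Ndufaf4 at 21.6 and 23.4 and at 20.7 and 23.8 FPKM, and Ndufaf6 at 22.3 and 25.1 and at 23.6 and 24.5 FPKM. The genotypes overlapped in Atp5o, Uqcrh, Ndufaf4 and Ndufaf6.

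At the shared end of the range, regions in all 4 lists covered the annotated start of Atp5g2 (percentiles 99.8 and 99.0 in WT, 98.7 and 96.7 in TDG KO), Ndufb10 (99.6 and 84.9, then 93.7 and 95.5) and Atp5k (82.2 and 80.4, then 58.0 and 87.2). Ndufb10 rose, Atp5k fell and Atp5g2 was not called. Their promoters follow in the same form, and each window covers only part of its peak. Capitals again mark NRF1, GABP, YY1 and CTCF letters.
Atp5g2 promoter, chr15:102670998-102671297, minus strand: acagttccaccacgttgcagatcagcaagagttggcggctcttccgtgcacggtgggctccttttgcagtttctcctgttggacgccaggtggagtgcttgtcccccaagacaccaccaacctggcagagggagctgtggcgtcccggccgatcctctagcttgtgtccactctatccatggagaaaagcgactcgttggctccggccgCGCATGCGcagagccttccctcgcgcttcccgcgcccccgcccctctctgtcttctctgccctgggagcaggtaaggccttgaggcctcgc
Ndufb10 promoter, chr17:24724374-24724673, minus strand: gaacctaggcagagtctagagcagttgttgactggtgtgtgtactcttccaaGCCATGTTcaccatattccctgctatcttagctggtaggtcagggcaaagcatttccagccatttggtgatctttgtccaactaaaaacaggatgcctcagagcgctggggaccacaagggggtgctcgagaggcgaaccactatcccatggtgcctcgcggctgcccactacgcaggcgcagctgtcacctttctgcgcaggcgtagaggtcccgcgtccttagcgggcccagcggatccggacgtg
Atp5k promoter, chr5:108434350-108434649, minus strand: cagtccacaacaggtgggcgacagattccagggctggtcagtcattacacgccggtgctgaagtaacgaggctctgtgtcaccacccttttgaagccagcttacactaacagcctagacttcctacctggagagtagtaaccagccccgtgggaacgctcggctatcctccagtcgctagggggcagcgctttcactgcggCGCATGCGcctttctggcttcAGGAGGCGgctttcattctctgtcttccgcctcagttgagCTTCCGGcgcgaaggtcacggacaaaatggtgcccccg
The Atp5g2 window has 1 NRF1 match, the Ndufb10 window 1 YY1 match, and the Atp5k window 1 match each to NRF1, GABP and CTCF. Regions in all 4 lists cover the starts of Atp5g2 and Ndufb10, whose windows have no match to the CTCF letters. Absence of a match to these letters does not show absence of a CTCF site. Nor is the marked stretch of Atp5k shown to be the site under its peak.

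Genes that build the chain or work beside it were read from lists chosen together with the members. Over all tested genes 24.4% rose and 29.5% fell, and among the other tested genes placed off chromosome 11 these shares were 20.7% and 31.8%. Of 37 assembly factors outside the naming rule 16 rose (43.2%), 4 fell (10.8%) and 17 did neither. The median log2 change of these factors was 0.12. Among them Cox10, which makes the haem A of complex IV, rose from 14.4 and 14.2 to 25.1 and 26.7 FPKM (log2 change 0.81), and Sco1, which delivers copper to it, from 14.6 and 16.3 to 26.6 and 27.2 FPKM (0.77). Of the 16 increases 8 were of genes on chromosome 11, where all 8 listed factors rose. Among the other 29 factors 8 rose (27.6%) and 4 fell (13.8%). Of 77 mitochondrial ribosomal protein genes, needed to translate the subunits encoded in mitochondrial DNA, 31 rose (40.3%), 8 fell (10.4%) and 38 were not called. On chromosome 11, 9 of 10 rose, where 65.4% of the tested genes other than members rose. Elsewhere 22 of 67 rose (32.8%) and 8 fell (11.9%). Mrps12 changed furthest, from 33.0 and 28.9 to 70.2 and 80.9 FPKM (log2 change 1.26, limma, adjusted p = 0.00012), and lies on chromosome 7. The difference between these lists and the subunits was not tested. Of 11 electron carriers and further subunits, Etfdh, Atpif1 and Usmg5 fell (27.3%), Etfb rose (9.09%) and 7 were not called. Etfdh, which hands electrons from fatty acid oxidation to ubiquinone, stood at 14.1 and 15.2 FPKM in WT and at 10.2 and 10.6 FPKM in TDG KO, and Atpif1, the inhibitor of the ATP synthase, at 426 and 446 and at 319 and 360 FPKM. Usmg5 stood at 525 and 506 and at 374 and 425 FPKM, and Etfb at 133 and 126 and at 154 and 177 FPKM. Cytochrome c, encoded by Cycs, stood at 126 and 133 FPKM in WT and 136 and 152 FPKM in TDG KO and was not called. The 13 subunits encoded in mitochondrial DNA were not analysed here.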

How the data were processed

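RNA-seq was deposited by the authors as FPKM per gene and library, per the file headers. The authors' deposited comparison table also gives p-values, q-values and log2 folds. The folds are WT over TDG KO in 16171 of 16171 genes checked, and their sign was turned. Per the submitters' processing notes, Bowtie2 2.2.9, MACS2 2.2.1, TopHat2 2.1.1 and Cufflinks 2.2.1 were used with build mm10. The authors deposited 1 CTCF peak list per library with a score per peak; what it measures is not stated in the labels or headers used.

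All 12035 genes whose mean FPKM reached 1 entered a 2-sided test by limma 3.58.1 (R 4.3.3) of log2(FPKM + 1), with an intensity trend and a Benjamini-Hochberg threshold of 0.05; the script was checked on simulated data. Such fold changes understate the change of low genes. An exact permutation test of 2 against 2 libraries cannot go below 0.33. Relative depth, from steps between low values, was 0.853 (WT replicate 2), 0.993 and 0.927 (TDG KO replicates 1 and 2) of WT replicate 1. The labels do not say whether counting used strand, and overlapping genes are therefore uncertain. RefSeq positions (GRCm38, 1-based) matched 96 members and 11853 tested genes; percentages for CTCF regions are of these 11853. The rule for values per library took the 3 most changed called members per complex and direction, the 2 most abundant, related-gene families, genes under the filter or without a test in the authors' table, members whose CTCF region was not in all 4 lists, and up to 3 called genes per other list (not all of these last are printed); others named were chosen after their values were seen. The alternatives were no filter or a mean FPKM of 5, a pseudocount of 0.1, 2 other scalings, no trend, the replicate block, leaving out each library and, added after seeing the data, centring by chromosome and leaving out chromosome 11. Members and lists were chosen with earlier results of these data known. RNA polymerase II, IgG and input libraries were not used here. Values of 1 member are not reported here.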

Additional observations from a re-analysis of the deposited data

How the results depend on the processing

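Of the 37 called members, Atp5h alone changed sign under any of the 12 settings applied to single members; it lies on chromosome 11 and came to -0.10 (adjusted p = 0.241, limma) when each gene was set against its own chromosome. Another 24 members, none of them called and all within 0.122 of 0 on the log2 scale, changed sign under at least 1 setting. The count of higher members was 13, and that of lower members 24. With no filter on FPKM they were 8 and 15, as all genes with any value above 0 entered the fit. With one library left out the counts ranged from 8 to 22 higher and from 11 to 31 lower. Centring by chromosome gave 15 lower members (16%, against 23.9% of all tested genes). Members with a CTCF region near a gene end numbered 33 at 1 kb (34.4%, against 29.0% of tested genes). At 5 kb they numbered 70 (72.9%, against 63.2%). Those with a TDG KO-only region numbered 1 at 1 kb (against 2.24% of tested genes) and 8 at 5 kb (against 8.13%). Among peaks above the median score of their list there were 0 (against 1.4%). The wider window and the shorter lists account for these changes by construction. For the other changes the cause was not tested. Fitted with a replicate block, 17 members were higher and 30 lower (18.1% and 31.9%, against 25.2% and 30.5% of all tested genes). Deviations of same-numbered libraries correlated at r = -0.016 across genes. With 2 libraries per genotype, this value cannot show whether same-numbered libraries shared a culture or a batch. The remaining settings (a higher filter, another pseudocount, 2 scalings, no trend) gave 11 to 19 higher and 20 to 26 lower members. Under these settings 12.5% to 20.2% of members were higher, against 24.1% to 27.3% of all tested genes. Lower members were 21.3% to 29.5%, against 25.5% to 34.3%. Over all 12035 tested genes the calls were 2942 higher (24.4%) and 3554 lower (29.5%). With no filter 24145 genes entered the fit, of which 3345 were higher (13.9%) and 2886 lower (12%). Member shares in the fit without a filter were 8.33% and 15.6%, so the lower share there was above that of all genes. Absolute depth is unknown, so members under 1 FPKM were left without a test.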

Other observations

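Of 13 citric acid cycle genes 5 rose (38.5%), 2 fell (15.4%) and 6 were not called. Over all tested genes 24.4% rose and 29.5% fell. Ogdh, the first component of the oxoglutarate dehydrogenase complex, on chromosome 11, stood at 40.2 and 40.5 FPKM in WT and at 73.0 and 74.0 FPKM in TDG KO (log2 change 0.85). Cs, the citrate synthase, rose from 116 and 119 to 144 and 147 FPKM (0.31). Idh3b, a subunit of the NAD-dependent isocitrate dehydrogenase, fell from 83.3 and 83.8 to 62.8 and 66.3 FPKM (-0.37).

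Of 17 tested regulators of respiratory genes and of mitochondrial DNA, 1 rose (5.88%), 5 fell (29.4%) and 11 were not called. The shares over all tested genes were 24.4% and 29.5%. Esrra, a nuclear receptor of oxidative metabolism, rose from 6.73 and 5.80 to 11.2 and 12.2 FPKM (log2 change 0.81). Its relative Esrrb, a stem cell transcription factor, fell from 266 and 266 to 186 and 184 FPKM (-0.52), and Mterf3 fell from 28.2 and 30.1 to 22.0 and 21.0 FPKM (-0.42). Gabpa, the DNA-binding part of GABP, fell from 45.8 and 49.1 to 42.4 and 38.3 FPKM (-0.23), while Nrf1 (48.7 and 49.0 FPKM in WT, 45.1 and 49.8 FPKM in TDG KO) and Yy1 (32.1 and 35.9, then 26.3 and 30.8 FPKM) were not called. Ppargc1a, a coactivator of mitochondrial biogenesis, stood under 0.02 FPKM in all 4 libraries and was not tested.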
